A study of Mus musculus with 6 samples.

Results

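The alpha- and beta-crystallin genes Cryaa, Cryab, Cryba1, Cryba2, Cryba4, Crybb1, Crybb2 and Crybb3 encode the main structural proteins of lens fibre cells. They were taken by symbol and are 8 of the 23420 genes with a row of counts. Their RNA was compared in mouse lenses of embryonic stage E14.5, in the transition zone, where cells of the epithelium stop dividing and start to lengthen into fibres. The 3 mutant libraries came from embryos labelled Pea3, with the genotype Le-Cre, Etv4-/-, Etv5 fl/fl and Etv1 fl/fl. The 3 control libraries, titled wild type, came from embryos that also carried Le-Cre. Both groups were of mixed strain background. Le-Cre is a transgene that drives Cre in surface ectoderm, from which the lens arises, so the floxed Etv1 and Etv5 alleles are recombined there, while Etv4 is null throughout the mutant embryo. Whether the libraries of a group stem from separate embryos is not in the labels, so the spread behind each p-value is that between libraries and may be technical.

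Crystallins make up most of the soluble protein of the lens, and their packing gives it a high refractive index. The alpha-crystallins belong to the small heat shock proteins and act as chaperones that keep other proteins in solution. The beta-crystallins share a fold of Greek key motifs with the gamma-crystallins and form oligomers of acidic (Cryba) and basic (Crybb) chains. As a lens cell becomes a fibre, signalling by fibroblast growth factors and the transcription factors Maf, Pax6, Sox1, Prox1 and Hsf4 act on crystallin genes. Etv1, Etv4 and Etv5 form the Pea3 family, ETS factors whose expression that signalling induces.

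Summed counts were between 13364742 and 17301168 a library, and 1 count stood for 0.0507 to 0.0824 CPM (counts scaled to library size after TMM normalisation). The reads came from amplified cDNA without molecular identifiers or strand marks, so counting error alone understates the error of a value. Replicates differed from each other by far more than counting error, with a chi-square of 29.7 to 146.4 for each degree of freedom. Mutant library 1 stood apart in sex-linked RNA, with 711 counts of Xist and 2 of Ddx3y, whereas the other 5 libraries had at most 3 counts of Xist and at least 521 of Ddx3y. Etv1 had 572, 262 and 530 counts in mutant libraries 1, 2 and 3, against 607, 924 and 1276 in control libraries 1, 2 and 3. Etv5 had 2290, 1349 and 1521 counts in the mutant libraries, against 3284, 2911 and 3035 in the control libraries. Etv4 had 97, 45 and 77 counts in the mutant libraries, against 39, 35 and 58 in the control libraries. Counts summed over a gene do not show whether the deleted exons were present, so they do not check the genotypes. Below, values are listed for mutant libraries 1, 2 and 3 and then for control libraries 1, 2 and 3.

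The 8 genes differed widely in abundance, which is compared here per length of transcript. Cryaa had 100438 ± 35086 CPM per kb in mutant libraries and 109494 ± 40910 in control libraries (SD, n = 3 each). Without division by length, its CPM was the highest of all genes in 6 of 6 libraries. Cryba1 came next, with 54616 ± 25022 CPM per kb in mutant and 76412 ± 31509 in control libraries. Crybb1 had 22275 ± 8621 CPM per kb in mutant and 34024 ± 18272 in control libraries, and Crybb3 had 14148 ± 6931 in mutant and 25387 ± 10421 in control libraries. Cryba4 had 4778 ± 3497 CPM per kb in mutant and 11008 ± 5414 in control libraries, and Cryba2 had 3280 ± 1998 in mutant and 10082 ± 4562 in control libraries. Cryab followed with 1179 ± 566 CPM per kb in mutant and 2141 ± 97.5 in control libraries. Crybb2 was far below the others, with 2.32 ± 0.629 CPM per kb in mutant and 10.6 ± 1.11 in control libraries. Each neighbour in this order stood in the same order in 6 of 6 libraries, except that Cryab exceeded Cryba2 in mutant library 3. The levels of neighbours nonetheless overlapped between control libraries for every pair except Cryba2 with Cryab and Cryab with Crybb2.

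**Figure D1:**
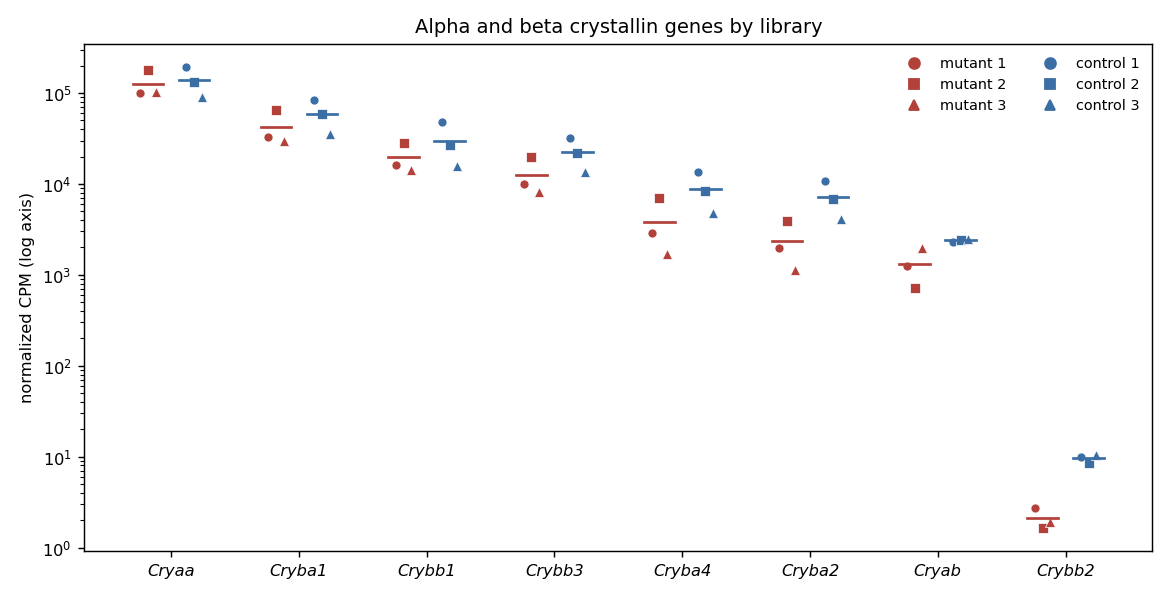
Level of each of the 8 genes in CPM (log axis), with mutant libraries to the left of control libraries, a point for each library and a short line at the group mean. Crybb2 lies between 1.65 and 2.74 CPM in mutant libraries and between 8.50 and 10.4 CPM in control libraries, while the Cryaa libraries of the groups interleave.

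The deposited counts are in the mouse build mm9, and the positions given here are from an annotation of GRCm38. Cryba4 (chr5:112246493-112252518, minus strand) and Crybb1 (chr5:112255815-112269585, plus strand) are neighbours that are transcribed away from each other. Crybb2 (chr5:113058258-113070117) and Crybb3 (chr5:113075839-113081584) are neighbours on the minus strand. Cryaa lies at chr17:31677807-31681733 on the plus strand and Cryab at chr9:50751325-50756636 on the plus strand. Cryba1 lies at chr11:77718615-77725283 and Cryba2 at chr1:74889934-74893143, both on the minus strand. Without strand marks, counts of overlapping genes cannot be told apart, and by this annotation Cryab overlaps Hspb2, Cryaa overlaps AC090881.2, Cryba1 overlaps Nufip2 and Crybb2 overlaps Gm43247.

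The 250 bases before the start of transcription are printed for the neighbouring pairs and for Cryba2, which enter the ratios or the shares described further on. The sequences are from RefSeq (GRCm38.p6), which matched 7 of the 8 genes, all but Cryab. They are read 5′ to 3′ on the strand of the gene, and end at the base before its start. Capitals mark TGCTGA, the core of the Maf recognition element, on either strand (TCAGCA where it lies on the opposite strand), and AGGAAG, the PEA3 motif bound by ETS factors.
Crybb2: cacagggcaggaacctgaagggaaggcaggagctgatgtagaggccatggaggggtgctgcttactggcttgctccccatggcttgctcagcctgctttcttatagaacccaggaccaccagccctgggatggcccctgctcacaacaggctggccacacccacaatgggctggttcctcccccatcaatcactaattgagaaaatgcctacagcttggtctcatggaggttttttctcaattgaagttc
Crybb3: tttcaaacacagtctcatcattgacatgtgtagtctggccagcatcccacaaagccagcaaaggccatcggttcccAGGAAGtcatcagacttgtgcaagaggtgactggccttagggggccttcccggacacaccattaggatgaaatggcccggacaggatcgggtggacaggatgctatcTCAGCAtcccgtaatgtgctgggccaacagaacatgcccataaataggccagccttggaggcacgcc
Cryba4: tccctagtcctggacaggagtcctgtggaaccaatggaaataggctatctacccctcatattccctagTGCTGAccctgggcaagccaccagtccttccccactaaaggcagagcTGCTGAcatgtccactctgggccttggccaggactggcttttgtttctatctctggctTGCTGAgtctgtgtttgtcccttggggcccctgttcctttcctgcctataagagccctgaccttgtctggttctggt
Crybb1: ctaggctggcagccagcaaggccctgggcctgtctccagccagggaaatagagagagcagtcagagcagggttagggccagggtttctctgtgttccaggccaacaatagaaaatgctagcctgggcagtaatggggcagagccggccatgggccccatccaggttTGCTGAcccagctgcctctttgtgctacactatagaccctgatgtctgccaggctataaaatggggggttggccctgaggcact
Cryba2: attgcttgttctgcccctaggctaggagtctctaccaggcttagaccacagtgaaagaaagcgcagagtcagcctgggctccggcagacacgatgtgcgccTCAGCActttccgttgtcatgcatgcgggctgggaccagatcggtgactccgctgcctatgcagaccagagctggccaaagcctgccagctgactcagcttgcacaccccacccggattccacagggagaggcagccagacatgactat
The windows are chr5:113070118-113070367 (minus), chr5:113081585-113081834 (minus), chr5:112252519-112252768 (minus), chr5:112255570-112255819 (plus) and chr1:74893144-74893393 (minus). Searched on both strands, TGCTGA occurred in 6 of the 7 windows, once each in Cryaa, Cryba1, Cryba2, Crybb1 and Crybb3 and 3 times in Cryba4. The Crybb2 window held neither motif. Of 32851 RefSeq windows of the same length, 16.1% held this motif. The PEA3 motif occurred in 1 of the 7 windows, that of Crybb3, and in 29.5% of all windows. The motifs did not overlap each other. The RefSeq starts differ from the gene positions given above for Cryaa, Cryba1 and Crybb1. In Cryaa, whose window is chr17:31677681-31677930, the motif lay 108 to 103 bases before the RefSeq start. By the position given above, it is therefore inside the gene and not before it. A match of letters is no record of binding, and these data hold no measure of binding.

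The first comparison asked whether RNA of these genes was lower or higher in the lenses labelled Pea3 than in control lenses, relative to all counts of the library. Of the 8 genes, Crybb2 fell and the other 7 did not pass the test (edgeR quasi-likelihood F test, Benjamini-Hochberg adjusted p under 0.05 over 12257 genes). All 8 passed the filter on low counts. Of all tested genes, 2.22% were called, 1.08% lower and 1.14% higher in mutant libraries. The fitted log2 fold change was negative for 8 of 8 genes, as it was for 49.8% of all tested genes, with a median of -0.85 over the 8, against 0.00 over all tested genes. The groups did not overlap for 3 of the 8, Cryab, Cryba2 and Crybb2, each lower in mutant libraries, which was the case for 11.3% of tested genes. These 3 also had an unadjusted p under 0.05, as did 8.27% of tested genes in that direction. In bulk tissue, fewer fibre cells in a sample and less RNA per cell cannot be told apart.

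Among the alpha-crystallins, Cryaa, the subunit made almost only in the lens, had 100055, 178417 and 102990 CPM in mutant libraries, against 193315, 132220 and 90325.4 CPM in control libraries. The groups overlapped: mutant library 2 was above 2 of the 3 control libraries, and control library 3 was the lowest of all 6. The mean was 127154 ± 44419 CPM in mutant and 138620 ± 51792 CPM in control libraries (SD, n = 3 each), with a log2 fold change of -0.12 ± 0.47 (SE; adjusted p = 0.926, edgeR). Its sign was not stable, since it was 0.02 without mutant library 1, 0.01 without mutant library 3, 0.19 without control library 1 and 0.03 when library totals were used without further scaling. That scaling moved the median of all tested genes by 0.13 on the log2 scale.

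Cryab, the alpha-crystallin that is also made in heart and muscle, had 1254, 718.1 and 1978 CPM in mutant libraries, against 2275, 2409.55 and 2490.2 CPM in control libraries. Every mutant library was below every control library. The control libraries were within 1.09-fold of each other, while the mutant libraries spread over 2.76-fold, with mutant library 2 the lowest. The mean was 1317 ± 632 CPM in mutant and 2391 ± 109 CPM in control libraries, and the log2 fold change of -0.86 ± 0.33 did not pass the test (edgeR adjusted p = 0.250, unadjusted p = 0.0304). Without mutant library 2 it was -0.57. Hspb2, the small heat shock gene that overlaps Cryab, had 627, 94 and 1007 counts in mutant libraries, against 216, 807 and 773 in control libraries, and was also lowest in mutant library 2. Cryab itself had far more, with 24726, 8715 and 36323 counts in mutant libraries, against 30457, 39701 and 44965 in control libraries. How many reads of either gene were counted for the other was not tested.

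Among the acidic beta-crystallins, Cryba1, whose transcript gives the beta-A3 and beta-A1 chains, had 32889, 64894 and 29691 CPM in mutant libraries, against 84182, 59005 and 35159.8 CPM in control libraries. The groups overlapped, with mutant library 2 above control libraries 2 and 3. The mean was 42491 ± 19467 CPM in mutant and 59449 ± 24514 CPM in control libraries, with a log2 fold change of -0.48 ± 0.46 (edgeR adjusted p = 0.649). It was -0.93 without mutant library 2, -0.75 without control library 3, -0.33 without mutant library 1, -0.28 without mutant library 3 and -0.15 without control library 1.

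Cryba2, which encodes the beta-A2 chain, had 1999.8, 3946 and 1138 CPM in mutant libraries, against 10708, 6899.9 and 4169 CPM in control libraries. The groups did not overlap, but mutant library 2 came within a short distance of control library 3. The mean was 2361 ± 1439 CPM in mutant and 7259 ± 3285 CPM in control libraries, 3.07-fold lower in the mutant. The log2 fold change of -1.62 ± 0.51 did not pass the test (edgeR adjusted p = 0.174, unadjusted p = 0.0136). The call turned on mutant library 2: without it the value was -2.21 with an adjusted p of 0.0410, and over 14 alternatives the adjusted p lay between 0.0410 and 0.408, passing in 2.

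Cryba4, which encodes the beta-A4 chain, had 2854, 7051 and 1675 CPM in mutant libraries, against 13490.5, 8411 and 4782 CPM in control libraries. Mutant library 2 was above control library 3, and the other mutant libraries were below every control library. The mean was 3860 ± 2826 CPM in mutant and 8894 ± 4374 CPM in control libraries, with a log2 fold change of -1.20 ± 0.58 (edgeR adjusted p = 0.355). It was -1.97 without mutant library 2 and -0.78 without control library 1, and did not pass in either case. Its mutant libraries spread the most of the 8 genes, over 4.21-fold.

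Among the basic beta-crystallins, Crybb1, its neighbour, had 16246, 28357 and 14337 CPM in mutant libraries, against 47539, 26653 and 15836 CPM in control libraries. The groups overlapped, and control library 1 stood 3.00-fold above control library 3. The mean was 19647 ± 7603 CPM in mutant and 30009 ± 16116 CPM in control libraries, with a log2 fold change of -0.61 ± 0.46 (edgeR adjusted p = 0.555). Without control library 1 it was -0.12, and without mutant library 2 it was -0.97.

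Crybb3, a basic chain made in the embryonic lens, had 9922, 19693 and 8244 CPM in mutant libraries, against 32217, 22067 and 13652 CPM in control libraries. Mutant library 2 was above control library 3, and the other mutant libraries were below every control library. The mean was 12620 ± 6183 CPM in mutant and 22645 ± 9296 CPM in control libraries, with a log2 fold change of -0.84 ± 0.43 (edgeR adjusted p = 0.383). It was -1.32 without mutant library 2 and -0.50 without control library 1.

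Crybb2, a basic chain that becomes abundant in the lens after birth, was barely present at this stage, with 571 counts over the 6 libraries, 0.00256% of all alpha- and beta-crystallin counts. It had 54, 20 and 35 counts in mutant libraries, against 134, 140 and 188 in control libraries, or 2.74, 1.65 and 1.91 CPM in mutant and 10.01, 8.50 and 10.4 CPM in control libraries. Every mutant library was below every control library by a wide margin, and the control libraries were within 1.23-fold of each other. The mean of 2.10 ± 0.570 CPM in mutant libraries was 4.59-fold below the 9.64 ± 1.01 CPM of control libraries (SD, n = 3 each). The log2 fold change of -2.19 ± 0.32 (SE) passed the test (edgeR, adjusted p = 0.0114). It stayed between -2.43 and -1.97 over 14 alternatives, and passed the test in 11 of them, with adjusted p between 1.8e-07 and 0.0730. Among these, DESeq2 called 6.7% and limma voom 6.54% of all tested genes, more than edgeR. The call was lost without mutant library 3 (-2.11), without control library 2 (-2.27) and without control library 3 (-2.13). Without mutant library 1, which differed in sex-linked RNA, the value was -2.43 with an adjusted p of 0.0353. The overlap of Crybb2 with the annotated gene Gm43247 leaves the source of some counts uncertain.

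The 6 abundant genes other than Cryab and Crybb2 followed a similar course over the libraries: they were highest in control library 1 and, among mutant libraries, highest in mutant library 2. Cryab and Crybb2 were instead lowest in mutant library 2, at -1.24 and -1.38 on the log2 scale relative to their own means over the 6 libraries. When mutant library 2 was left out, the groups did not overlap for 6 of the 8 genes, all but Cryaa and Crybb1, each lower in mutant libraries, and the same held for 20.8% of tested genes. Mutant library 2 was also the shallowest.

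**Figure D2:**
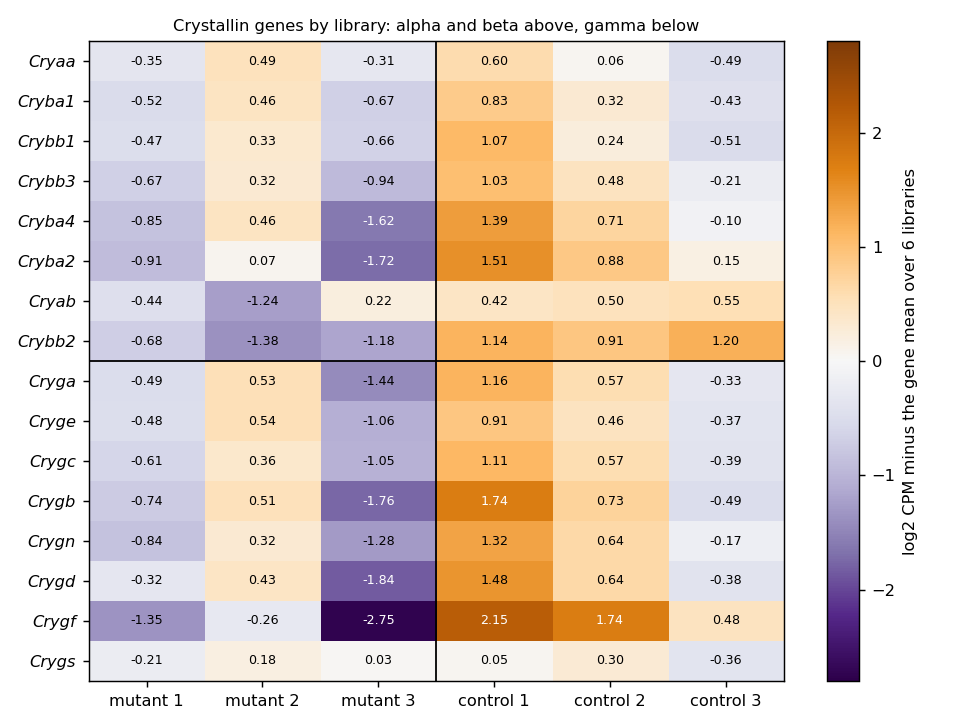
Level of 16 crystallin genes (rows; the 8 alpha- and beta-crystallins above, gamma-crystallins below) in each library (columns, mutant left of control), as the log2 CPM minus the gene's mean over the 6 libraries; colour and printed number give the same value. Cryab and Crybb2 have their lowest values, -1.24 and -1.38, in mutant library 2, where Cryaa stands at 0.49.

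The makeup of the crystallin RNA was compared next, since the share of a library taken by crystallins differed widely between replicates. The 8 genes took 18.8, 27.5 and 17.9% of all counts in mutant libraries, against 30.8, 24.8 and 18.6% in control libraries. The groups overlapped, and the means of 21.4 ± 5.32% in mutant and 24.8 ± 6.12% in control libraries differed by -3.35 percentage points (two-sided exact permutation test, p = 0.6). Single libraries moved this difference widely: it was -0.31 without control library 1, -1.58 without mutant library 3, -2.06 without mutant library 1, -6.41 without mutant library 2 and -6.43 without control library 3. With 3 against 3 libraries, this test cannot give a p below 0.1.

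Within the counts of 16 alpha-, beta- and gamma-crystallin genes, the share of Cryaa was higher in every mutant library than in any control library. It was 52.5, 50.4 and 59.0% in mutant libraries, against 41.3, 42.3 and 46.2% in control libraries. The means were 53.9 ± 4.47% in mutant and 43.2 ± 2.60% in control libraries, a difference of 10.7 percentage points (exact permutation p = 0.1, 0.16 after Benjamini-Hochberg adjustment over the 8 genes). Relative to the crystallin counts, 5.53% of all tested genes were higher in mutant libraries without overlap. Cryab, the other alpha subunit, gave 0.658, 0.203 and 1.13% in mutant libraries, against 0.486, 0.770 and 1.27% in control libraries, with groups that overlapped (exact permutation p = 0.7, adjusted 0.7).

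Among the beta chains the share was lower in every mutant library than in any control library for Cryba2, Cryba4, Crybb2 and Crybb3. Cryba2 gave 1.05, 1.11 and 0.652% of crystallin counts in mutant libraries, against 2.29, 2.21 and 2.13% in control libraries. Control libraries that differed 2.57-fold in Cryba2 level thus had nearly the same share of it, with means of 0.938 ± 0.250% in mutant and 2.21 ± 0.0774% in control libraries. Cryba4 gave 1.497, 1.99 and 0.959% in mutant libraries, against 2.88, 2.69 and 2.45% in control libraries. Crybb3 gave 5.21, 5.56 and 4.72% in mutant libraries, against 6.88, 7.05 and 6.98% in control libraries, with a mean of 5.16 ± 0.422% in mutant and 6.97 ± 0.0860% in control libraries. Crybb2 gave 0.00144, 0.000465 and 0.00109% in mutant libraries, against 0.00214, 0.00272 and 0.00533% in control libraries. For each of these 4 genes the exact permutation p was 0.1 and 0.16 after adjustment over the 8 genes. In every comparison that left out 1 library, the sign of these 4 differences and of that of Cryaa stayed the same, while that of Crybb2, -0.00239 percentage points, was -0.00143 without control library 3. Relative to the crystallin counts, 2.37% of all tested genes were lower without overlap.

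The shares of the other abundant beta chains overlapped between groups. Cryba1 gave 17.3, 18.3 and 16.998% in mutant libraries, against 17.98, 18.9 and 17.98% in control libraries (exact permutation p = 0.3, adjusted 0.4). Crybb1 gave 8.52, 8.01 and 8.21% in mutant libraries, against 10.2, 8.52 and 8.10% in control libraries (exact permutation p = 0.5, adjusted 0.571). Cryba1 thus had a mutant share close to that of control libraries, while its own level varied more than 2-fold among replicates of either group.

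**Figure D3:**
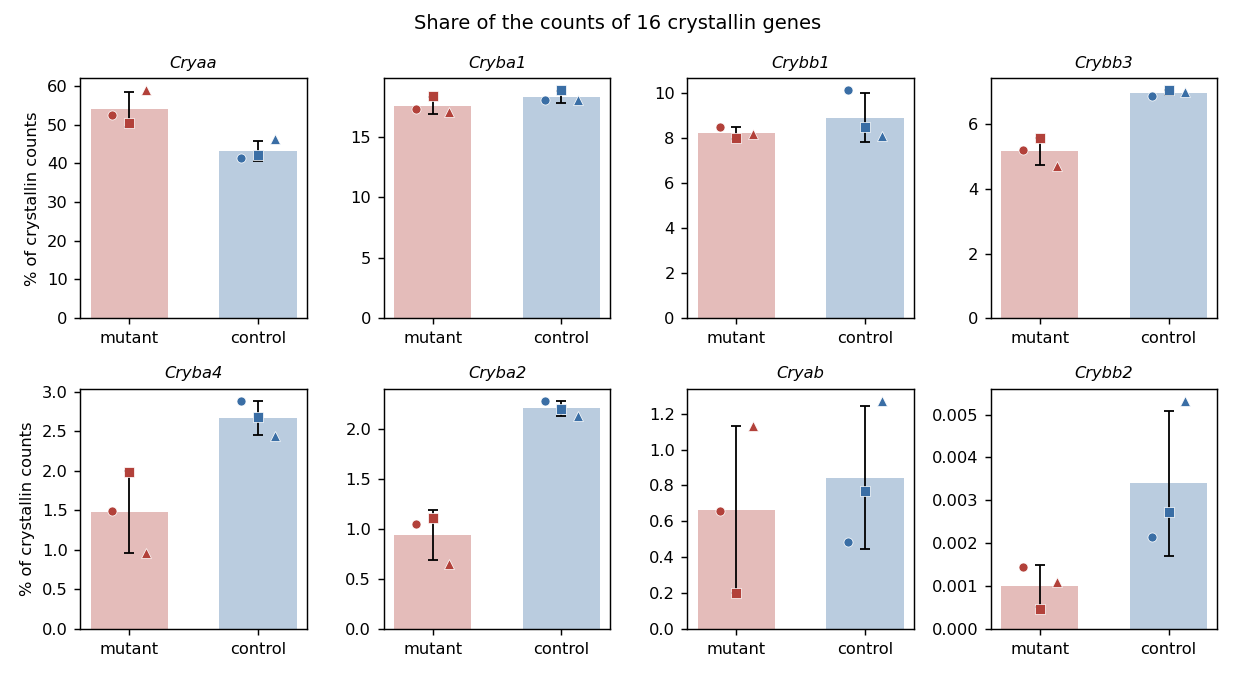
Share of each of the 8 genes in the counts of 16 crystallin genes, in percent. Bars give the group mean, mutant left of control, error bars the SD, and circles, squares and triangles libraries 1, 2 and 3. The Cryaa points lie between 50.4 and 59.0% in mutant and between 41.3 and 46.2% in control libraries, and the Cryba2, Cryba4 and Crybb3 points are lower in every mutant library than in any control library.

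Summed by class, the alpha-crystallins made up 53.2, 50.6 and 60.1% of crystallin counts in mutant libraries, against 41.8, 43.0 and 47.5% in control libraries. The 6 beta-crystallins made up 33.5, 34.99 and 31.5% in mutant libraries, against 40.2, 39.3 and 37.7% in control libraries. The groups did not overlap in either class, with means of 54.6 ± 4.92% in mutant and 44.1 ± 3.00% in control libraries for the alpha class and of 33.4 ± 1.73% in mutant and 39.1 ± 1.29% in control libraries for the beta class (exact permutation p = 0.1 for each). The 8 genes together made up 88.0 ± 3.23% of crystallin counts in mutant and 83.1 ± 1.73% in control libraries, and the gamma-crystallins made up the rest. Shares of a fixed total are not independent of each other, and Cryaa alone supplies much of that total. A higher share of Cryaa therefore lowers the shares of the beta chains. The beta class was not compared relative to the crystallins other than Cryaa, and its direction on that scale may differ.

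The same question was put to the model across all genes, with the counts of the 16 crystallin genes in place of the library size. On this scale the median log2 fold change of all tested genes was 0.40, and 18.5% of them were negative. None of the 8 genes passed the test (edgeR), by which 1.69% of tested genes were called and 0.359% were called lower. Cryba2 had -1.23 ± 0.44 (SE, edgeR adjusted p = 0.184), Crybb2 had -1.76 ± 0.70 (0.310) and Cryba4 had -0.85 ± 0.43 (0.701). Crybb3 had -0.43 ± 0.40, Cryab -0.34 ± 0.45, Crybb1 -0.11 ± 0.40 and Cryba1 -0.06 ± 0.38, and Cryaa, the single positive value, had 0.32 ± 0.35. The median of the 8 on this scale was -0.39.

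**Figure D4:**
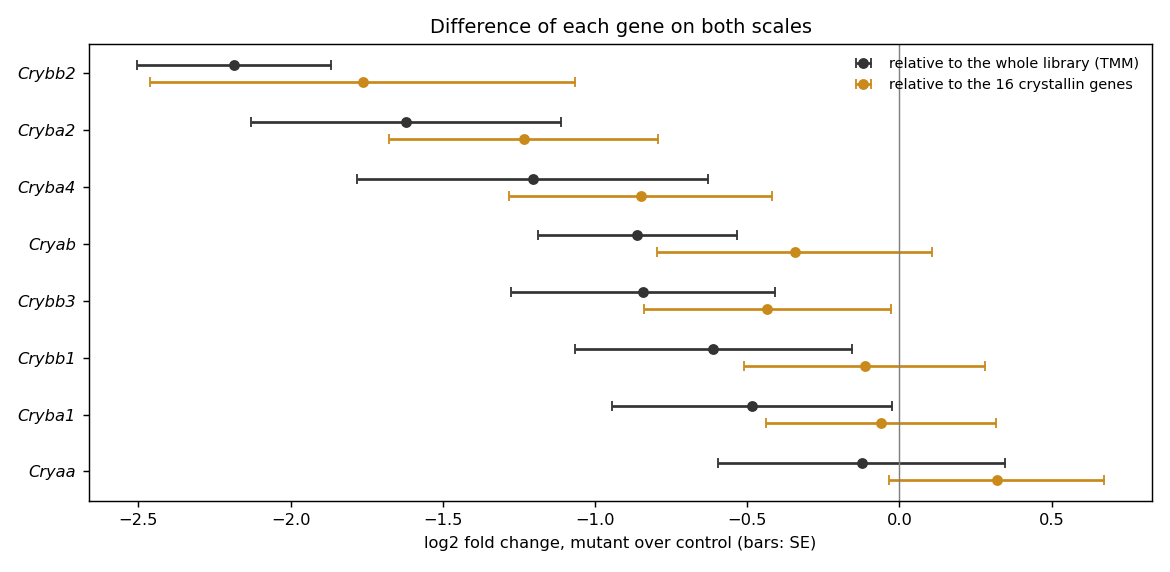
Log2 fold change of each gene, mutant over control, with its standard error, relative to the whole library (dark) and to the counts of 16 crystallin genes (ochre). Relative to the library, values run from -2.19 for Crybb2 to -0.12 for Cryaa, and relative to the crystallin counts they run from -1.76 for Crybb2 to 0.32 for Cryaa.

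Ratios of members within a library do not depend on how libraries are scaled. For the neighbours Crybb2 and Crybb3, Crybb3 had 3623, 11950 and 4325 counts for each count of Crybb2 in mutant libraries, against 3219, 2597 and 1311 in control libraries. The log2 ratio of Crybb2 to Crybb3 was -12.48 ± 0.93 in mutant and -11.12 ± 0.68 in control libraries, with groups that did not overlap (difference -1.36, exact permutation p = 0.1, 0.15 adjusted over 3 ratios). Without mutant library 2 the difference was -0.83. For the divergent neighbours, Crybb1 had 5.69, 4.02 and 8.56 counts for each count of Cryba4 in mutant libraries, against 3.52, 3.17 and 3.31 in control libraries. The control libraries thus agreed closely, while every mutant library had less Cryba4 for its Crybb1. The log2 ratio of Cryba4 to Crybb1 was -2.54 ± 0.55 in mutant and -1.74 ± 0.08 in control libraries (difference -0.80, exact permutation p = 0.1, adjusted 0.15). Without mutant library 3 the difference was -0.52. The alpha subunits gave groups that overlapped, with 79.8, 248.5 and 52.1 counts of Cryaa for each count of Cryab in mutant libraries, against 85.0, 54.9 and 36.3 in control libraries (exact permutation p = 0.5, adjusted 0.5).

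**Figure D5:**
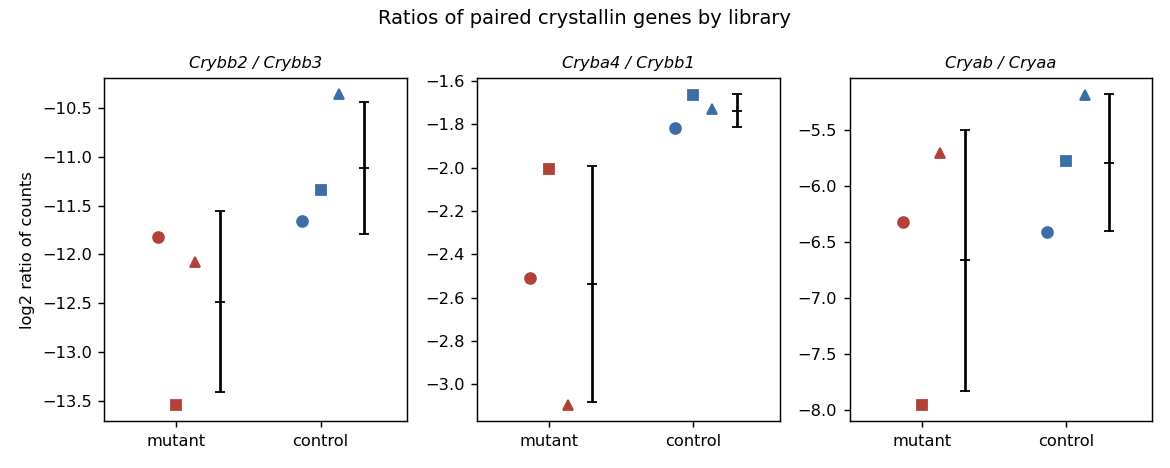
Log2 ratio of counts within a library for 3 pairs of members, mutant left of control, with circles, squares and triangles for libraries 1, 2 and 3 and, beside them, the group mean with its SD. Cryba4 to Crybb1 lies between -3.10 and -2.01 in mutant libraries and between -1.82 and -1.66 in control libraries.

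The gamma-crystallins, monomeric fibre proteins of the same fold as the beta-crystallins, were the nearest family for comparison. Of 8 tested relative to the library, 0 were called by edgeR, where 1 had an unadjusted p under 0.05 (16.2% of all tested genes had one) and DESeq2 and limma voom each called 1, and 8 of 8 had a negative log2 fold change, with a median of -0.97. Crygf had 137, 291 and 52.0 CPM in mutant libraries, against 1557, 1165 and 487 CPM in control libraries, with groups that did not overlap (-2.74 ± 0.66, edgeR adjusted p = 0.0923, and 0.0455 without mutant library 2). Relative to the crystallin counts, Crygf was the 1 gamma-crystallin called (-2.38 ± 0.50, edgeR adjusted p = 0.000443). The gamma-crystallins include near-identical copies, and how reads that match several of them were counted is not stated. Crygb had -1.30 ± 0.69, Crygn -1.16 ± 0.50 and Crygc -0.87 ± 0.47, and none of these passed. Other genes named as crystallins, which include enzymes such as Cryz, showed no call among 5 tested by edgeR, DESeq2 or limma voom, with 0 at an unadjusted p under 0.05 and a median of 0.05. Crym was too low to be tested. Of the other small heat shock proteins, 4 of 7 were tested and 0 were called by edgeR, with 2 at an unadjusted p under 0.05. By DESeq2 and by limma voom, 1 was called higher and 1 lower. Hspb8, a partner of Bag3 in protein quality control, had 5.58, 5.11 and 5.50 CPM in mutant libraries, against 1.34, 1.82 and 2.10 CPM in control libraries (1.61 ± 0.36, edgeR adjusted p = 0.0616). Hspb3, a muscle-type small heat shock protein, had 7.96, 14.9 and 6.48 CPM in mutant libraries, against 32.8, 23.7 and 18.7 CPM in control libraries (-1.36 ± 0.35, edgeR adjusted p = 0.0982).

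Among 30 tested transcription factors that act on crystallin genes or belong to the ETS family examined, 2 fell, 0 rose and 28 did not pass (edgeR), with a median of -0.15. DESeq2 and limma voom each called 5 lower and 1 higher. Gata3, a zinc finger factor needed for lens fibre differentiation, had 38.5, 27.3 and 34.6 CPM in mutant libraries, against 68.3, 83.3 and 84.6 CPM in control libraries (-1.23 ± 0.17, edgeR adjusted p = 0.00894). Etv1, one of the targeted genes, had -1.11 ± 0.21 (edgeR adjusted p = 0.0319), and Etv5, another, had -0.93 ± 0.19 (0.0503). Named after their values were seen, Maf had -0.43 ± 0.19, Prox1 -0.43 ± 0.15, Sox1 0.29 ± 0.15, Hsf4 -0.62 ± 0.50, Pax6 0.15 ± 0.18 and Pitx3 0.00 ± 0.12, and none of these 6 passed. The Gata3 call was lost without mutant library 3 (-1.26), without control library 2 (-1.19) and with library totals (-1.10, edgeR adjusted p = 0.107). That of Etv1 was lost without mutant library 1 or 3 or control library 2 or 3 (-1.18, -1.18, -1.13 and -0.94) and with library totals (-0.996, edgeR adjusted p = 0.216).

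Markers of lens fibres and lens epithelium were measured in the same libraries. Of 13 tested fibre markers that are not crystallins, 3 fell, 0 rose and 10 did not pass (edgeR), with 13 negative values and a median of -1.01, and DESeq2 and limma voom each called 5 lower. Bfsp2, a subunit of the beaded filament of fibres, had 15.6, 21.1 and 6.64 CPM in mutant libraries, against 633, 379 and 253 CPM in control libraries (-4.88 ± 0.52, edgeR adjusted p = 0.00464). Cdkn1c, a cell cycle inhibitor of the transition zone, had -1.17 ± 0.17 (edgeR adjusted p = 0.0121) and Grifin, a lens galectin, had -1.01 ± 0.15 (0.0120). Bfsp1, the partner of Bfsp2, had -1.95 ± 0.50 and did not pass (edgeR adjusted p = 0.105). The summed level of 16 fibre markers was 6991 to 12440 CPM in mutant and 13883 to 22353 CPM in control libraries. The call of Cdkn1c was lost without mutant library 1 (-1.09) and without control library 2 (-1.19), with edgeR adjusted p of 0.0841 and 0.0708. That of Grifin was lost without mutant library 1 (-0.97), mutant library 3 (-1.07) or control library 2 (-0.91), with edgeR adjusted p of 0.0614 to 0.0816.

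Of 9 lens epithelium markers, 0 were called by edgeR or DESeq2 and 1, as lower, by limma voom, with 2 at an unadjusted p under 0.05 in edgeR. There were 6 negative values and the median was -0.31, and their summed level was 2681 to 3360 CPM in mutant and 3982 to 4352 CPM in control libraries. Most of that sum came from Igfbp7 (means of 1236 CPM in mutant and 2061 CPM in control libraries) and Col4a1 (931 and 1313 CPM). The sum therefore does not describe the other markers. The log2 fold changes were -0.74 ± 0.26 for Igfbp7, a binding protein of insulin-like growth factors, -0.50 ± 0.20 for the capsule collagen Col4a1, 0.87 ± 0.38 for the cell cycle gene Ccnd1 and -0.63 ± 0.38 for the amino acid transporter Slc38a3. Ccnd1 passed when control library 2 was left out (1.51, edgeR adjusted p = 0.0216). Named after its values were seen, Foxe3, a factor that keeps lens epithelium proliferating, had 152, 39.7 and 156 CPM in mutant libraries, against 51.2, 214 and 283 CPM in control libraries. It was lowest in mutant library 2 and control library 1, the libraries with the largest share of alpha- and beta-crystallin counts in their groups, as were 6 of the 9 markers. The other 3 were Ccnd1, lowest in mutant library 1 and control library 1, Col4a1, which among mutant libraries was highest in library 2, and Igfbp7, which was highest in mutant library 2 and control library 1. Cdh1, the epithelial cadherin, chosen likewise, had 131, 70.3 and 136 CPM in mutant libraries, against 38.2, 146 and 235 CPM in control libraries, in the same order within each group. Of the members, Cryab also had this order, lowest in mutant library 2 and control library 1 and highest in library 3 of each group. Crybb2 did not have it. The part of the makeup of the samples in the crystallin values was not tested.

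Markers of tissues next to the lens were low beside crystallins. Of 13 retinal genes 2 were tested, with a summed level of 3.98 to 5.36 CPM in mutant and 4.597 to 9.34 CPM in control libraries, and Six6, Crx and Tyr were at 0 in every library. Surface ectoderm markers summed to 8.16 to 17.8 CPM in mutant and 3.29 to 13.1 CPM in control libraries, with Krt12 at 0. Periocular mesenchyme markers summed to 4.94 to 9.99 CPM in mutant and 3.88 to 18.3 CPM in control libraries, with Foxd3 at 0. Vessel markers summed to 23.2 to 56.6 CPM in mutant and 33.4 to 45.3 CPM in control libraries. Most of the vessel sum came from Tek, at 22.7 to 53.1 CPM in mutant and 27.9 to 41.7 CPM in control libraries. Blood and macrophage markers summed to 86.8 to 287.6 CPM in mutant and 54.1 to 165.1 CPM in control libraries, mostly from embryonic Hbb-y. The globin genes Hba-a1, Hba-a2, Hbb-b1 and Hbb-b2 were at 0 in every library, and Hbb-bt, Hbb-bs and Adgre1 had no row of counts. The sum therefore does not measure how much blood was present, and why these globin genes had no counts was not tested. All 6 tested blood and macrophage genes had positive values, with a median of 1.79. None of the tested genes in these 5 lists was called by edgeR, and 6 had unadjusted p-values under 0.05. In mesenchyme DESeq2 called 2 genes, 1 in each direction, and limma voom called 1 blood gene as higher.

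Outside these lists, the genes most like a member in their course over the 6 libraries were ranked among 9550 genes whose mean reached 5 CPM in mutant or control libraries, by the root mean square difference of log2 levels after each gene's mean was removed. Nearest to Crybb2 were Rgl2 (0.15), Khdrbs3 (0.16), Tmem200b (0.22) and Adcy9 (0.24), where the course of Crybb2 itself had a root mean square of 1.10. Rgl2, an exchange factor for Ral, averaged 9.32 ± 0.979 CPM in mutant and 40.8 ± 5.12 CPM in control libraries, and Khdrbs3, an RNA-binding splicing regulator, averaged 11.9 ± 3.79 CPM in mutant and 49.99 ± 11.4 CPM in control libraries. Among the nearest to the median course of the 8 genes were Pla2g16 (0.12), Zfyve21 (0.13) and Pygm (0.14), where the median course had a root mean square of 0.64. Pygm, the muscle form of glycogen phosphorylase, averaged 182 ± 92.6 CPM in mutant and 300.1 ± 141 CPM in control libraries. Likeness over 6 libraries describes these samples only.

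In the authors' deposited table, Crybb2 was likewise the only member past an adjusted p of 0.05, with a log2 fold change of -2.08 ± 0.35 and an adjusted p of 2.16e-07. The authors' deposited table gave the other 7 members negative log2 fold changes too, between -1.41 for Cryba2 and -0.12 for Cryaa, with adjusted p between 0.0693 for Cryab and 0.914 for Cryaa.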

How the data were processed

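RNA-seq libraries of the lens transition zone were made with a SMART-seq v4 kit and Nextera XT, per the labels' protocols. The tools named in the submitters' processing notes are TopHat, Cufflinks, DESeq and bcl2fastq 1.8.4, with the build mm9 and no roles. The read counter and its annotation are not stated. Raw counts for each gene symbol were deposited by the authors, the same in the series table and in the files of the libraries (0 counts differed). The authors' deposited table of their own comparison holds a mean of normalized counts (a signal over libraries), log2 fold changes with standard errors, a test score and p-values, and its positive values stand for higher in the mutant.

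Counts were fitted in edgeR 4.0.16 (R 4.3.3): filterByExpr (minimum count 10, minimum total 15) left 12257 genes, sizes were scaled by TMM, and groups of 3 were tested by quasi-likelihood F (robust, no covariates), with Benjamini-Hochberg adjustment over all tested genes and 0.05 as the threshold. The fit was repeated with the counts of 16 crystallin genes as library size. Shares and ratios were compared by two-sided exact permutation tests. Levels per kb used the longest coding transcript of the GRCm38 annotation. The procedure was tested on simulated data. Alternatives were DESeq2 size factors, scaling without crystallin genes, no filter, a filter of 5 CPM in 3 libraries, a replicate block, DESeq2 1.42.0, limma 3.58.1 voom with quality weights, leaving out each library and, chosen after seeing the data, library totals without further scaling.

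The members and gene lists were chosen with earlier results of these data known. Named genes were the 8 members, up to 4 genes of lowest p in each other list described and the 4 most like Crybb2 or the median course. Some genes that this rule names are not reported here.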

Additional observations from a re-analysis of the deposited data

How the results depend on the processing

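The number of alpha- and beta-crystallin genes called was 1 with DESeq2 size factors, scaling without crystallin genes, either other filter, the replicate block, DESeq2 and library totals, and 2 with limma voom, which added Cryba2 (adjusted p = 0.0433). Leaving out 1 library gave 0 to 2. Over all genes, 272 were called, against 122 with the replicate block, 821 with DESeq2, 801 with limma voom and 91 to 479 when 1 library was left out. Of the gamma-crystallins, Crygf alone was called with the block, DESeq2 and limma voom (1 each, adjusted p of 0.0144, 0.00793 and 0.0188), and 0 to 1 were called when 1 library was left out. Relative to the crystallin counts, 0 members were called under every alternative run. With the replicate block Crybb2 had an adjusted p of 0.0485, and Etv1, Cdkn1c and Grifin did not pass (-1.10, -1.17 and -1.002, with adjusted p of 0.0824, 0.0882 and 0.0757). Libraries of the same number had correlations of their deviations of -0.28, -0.15 and 0.22. Those of unlike number ranged from -0.36 to 0.41. With 3 libraries a group, these values cannot decide whether libraries of the same number were paired.

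Signs that turned were those of small values. Cryaa ranged from -0.45 to 0.19 when 1 library was left out and was 0.027 with library totals. Crygs, at -0.01, was 0.0042 with the block, 0.13 with library totals and -0.17 to 0.15 when 1 library was left out. Hspb6, at 0.26, was -0.034 with limma voom, and Hspb2, at -0.19, ranged from -0.85 to 0.26. The share of Cryab ranged from -0.413 to 0.0521 percentage points, and its log2 fold change relative to the crystallin counts from -0.97 to 0.086. The cause of these changes was not tested. Shares and ratios kept their sign under the other denominators and with a pseudocount of 1 count. For the beta chains, each of these denominators still contained Cryaa. Depth limits Crybb2 most, with 20 counts in mutant library 2.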
